A study of Mus musculus with 8 samples.

Results

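The genes described here encode the microtubule motors, that is the kinesins, the kinesin light chains, the chains of cytoplasmic dynein and the dynactin subunits that go with it. They were taken from the deposited table by symbol: every Kif gene with a number and at most one letter from a to c, Klc1 to Klc4, all symbols beginning with Dync1, Dync2, Dynll, Dynlr or Dynlt, and Dctn1 to Dctn6, with Kif11, Kif20a and Kif23 left out. This gave 57 of 17644 genes, of which 51 had enough tags to be tested. Expression was measured by CAGE, a method that sequences a tag from the capped 5′ end of each RNA, in tissue within 1.0 mm of a cavity in the motor cortex of mice. The 1-week group (4 libraries) came from brains removed 1 week after the cavity was made, and the no-delay group (4 libraries) from brains removed at once. All animals were 11-week-old C57BL/6NCrSlc males with the same lesion, a cavity 1 mm deep made by suction through an opening of the skull 2 mm wide, and no transgene or graft is named for these samples. Neither group is uninjured tissue. The tissue was dissected and not sorted, so each library mixes neurons, glia and vessels. The comparison asks how transcripts of the transport machinery differed between the border of a 1-week-old lesion and that of a fresh one.

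Kinesins and cytoplasmic dynein are ATP-driven motors that walk along microtubules, most kinesins toward the plus end, which in axons points to the synapse, and dynein toward the minus end, which points to the cell body. In neurons they carry vesicles, mitochondria, receptors and RNA over long distances. Kinesin-1 is built of heavy chains that hold the motor and light chains that bind cargo, while dynein-1 needs its intermediate and light chains and the dynactin complex to hold cargo and move far. Other kinesins act on the mitotic spindle of dividing cells, and dynein-2 works in cilia.

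The libraries held 8278855 to 13998941 tags assigned to genes, and values are CPM, tags scaled to the same total in each library (the authors' unit). A tag marks 1 end of 1 RNA, so CPM needs no division by transcript length. Zero tags allow up to 3 tags, which is 0.214 to 0.362 CPM depending on the library. The libraries of each group are called A to D, in the alphabetical order of the sequence tag in their column names, and values are given in that order, which pairs nothing across groups. A second, shorter tag is the same in all 1-week columns and another in all no-delay columns, so a preparation or run that it may mark cannot be told apart from the group. The labels count 4 brains in each group without tying a library to a brain, and p-values here measure the spread between libraries. Marker genes show how the tissue differed. Of 9 neuronal markers tested, 0 were called higher and 3 lower (median log2 fold change -0.06), and their summed level was 5903 to 6400 CPM at 1 week and 6590 to 7419 CPM without delay. All 7 astrocyte markers (1967 to 2877 CPM at 1 week, 474 to 540 CPM without delay) and all 7 markers of microglia and macrophages (937 to 1449 CPM at 1 week, 216 to 240 CPM without delay) were called higher, as were 5 of 6 oligodendrocyte, 2 of 4 precursor and 4 of 4 endothelial markers. None of these lists held a marker at 0 in all libraries. Fewer cells of a type and less RNA per cell cannot be told apart in such bulk tissue, and the part of these shifts in the motor genes was not tested.

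As a family the motors changed about as often as other genes did. Of the 51 tested, 11 were called higher and 8 lower at 1 week, which is 37.3% of them, where 36.8% of all 14718 tested genes were called. A gene is called when limma, run over all tested genes on log2(CPM + 1), gives a Benjamini-Hochberg adjusted p under 0.05. Of the motors 21.6% were higher and 15.7% lower, against 23.4% higher and 13.4% lower of all genes. The groups did not overlap for 18 motors, 35.3% of those tested, against 34.7% of all genes. The median log2 fold change was 0.03 over the motors and 0.06 over all genes. All 8 lower calls and 4 of the 11 higher calls were of members with a mean of 5 CPM or more. The other 7 higher calls were of members below that level, where a gene near 0 without delay enters the test only if it is high at 1 week, so that no relation of direction to level can be read from these counts. The balance shifted with the scaling: TMM factors gave 10 higher and 11 lower members (20.0% and 17.6% of all genes), and quantile normalization gave 7 higher and 9 lower (16.7% and 21.8% of all genes). Every one of the 8 members called lower was also called lower with both scalings.

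**Figure D1:**
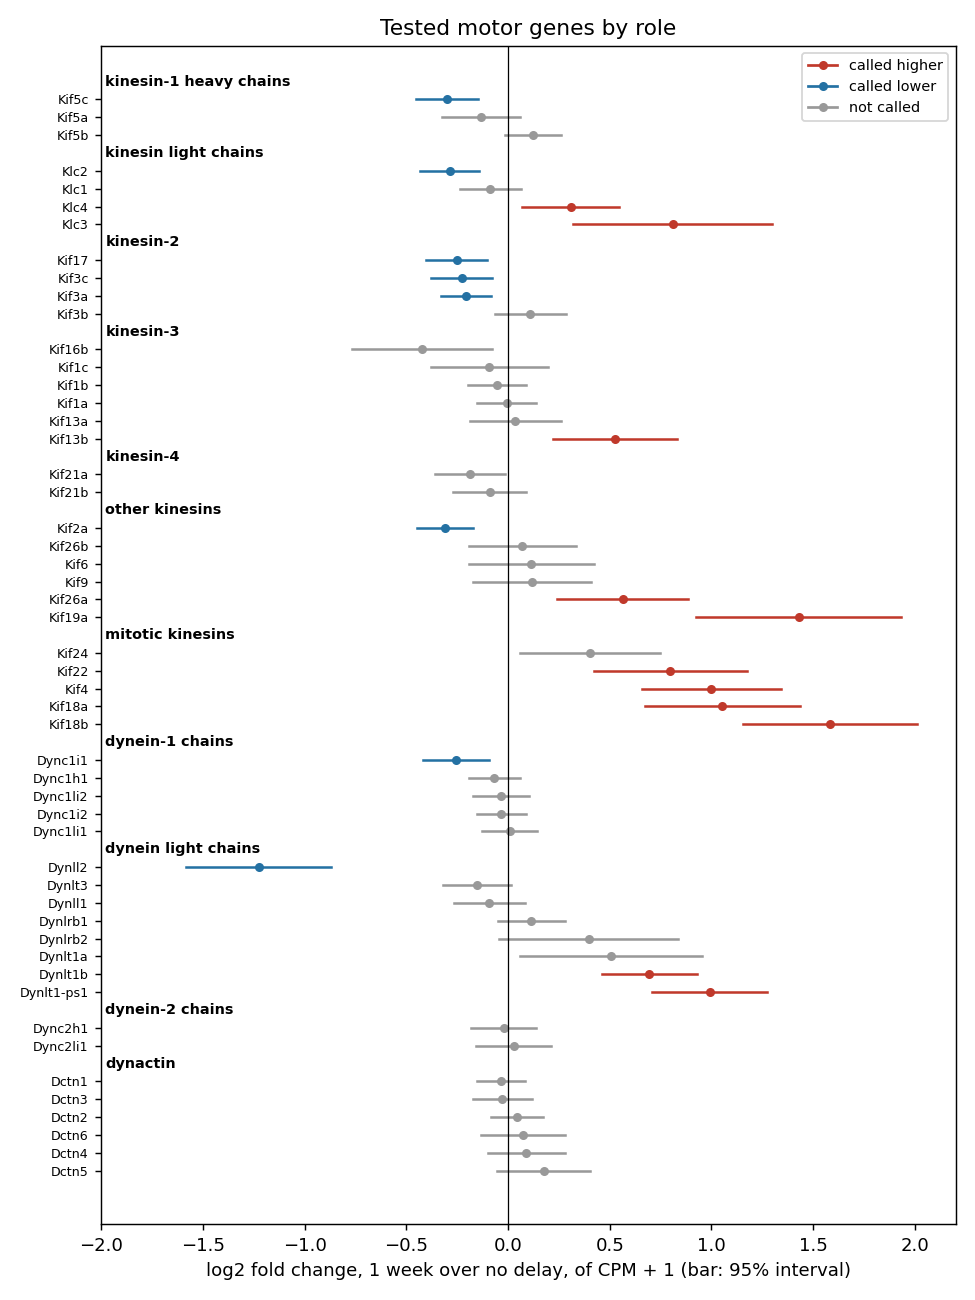
Log2 fold changes (1 week over no delay, of CPM + 1) of the 51 tested motor genes, grouped by role, with 95% intervals from limma. Dynll2 lies farthest to the left at -1.23 and the mitotic kinesin Kif18b farthest to the right at 1.58, while the dynactin genes lie between -0.04 and 0.17.

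The largest change in a well-expressed motor gene was in Dynll2, which encodes one of the 2 LC8 light chains, small dimers that bind dynein intermediate chains, myosin V and many other partners. Dynll2 stood at 539, 472, 529 and 644 CPM in the 1-week libraries, against 1069, 1639, 1571 and 947 CPM in the no-delay libraries. Every 1-week library lay below every no-delay one, and the no-delay libraries fell into 2 higher and 2 lower values. The means were 546 ± 72.0 CPM at 1 week and 1307 ± 349.5 CPM without delay (SD, n = 4 each), a ratio of 0.418. On the log2 scale the fold change was -1.23 (SE 0.16, 95% interval -1.58 to -0.87, limma adjusted p = 9.95e-05). It ranked 21 from the lowest among the log2 fold changes of all 14718 tested genes. Leaving out any one library moved the value between -1.37 and -1.10, and it was called in all 17 alternative analyses (adjusted p from 1.3e-15 to 0.000519).

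Its close relative Dynll1, which encodes the other LC8 chain, did not show this. Dynll1 stood at 648, 658, 673 and 563 CPM at 1 week, against 639, 711, 736 and 626 CPM without delay, with overlapping groups (log2 fold change -0.09, 95% interval -0.27 to 0.08, limma adjusted p = 0.397). The ratio of Dynll2 to Dynll1 tags was 0.831, 0.716, 0.786 and 1.14 at 1 week, against 1.67, 2.31, 2.13 and 1.51 without delay. Dynll2 thus gave more tags than Dynll1 in all no-delay libraries and in 1 of the 4 1-week libraries. The test of this ratio is given with the other pairs of relatives.

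**Figure D2:**
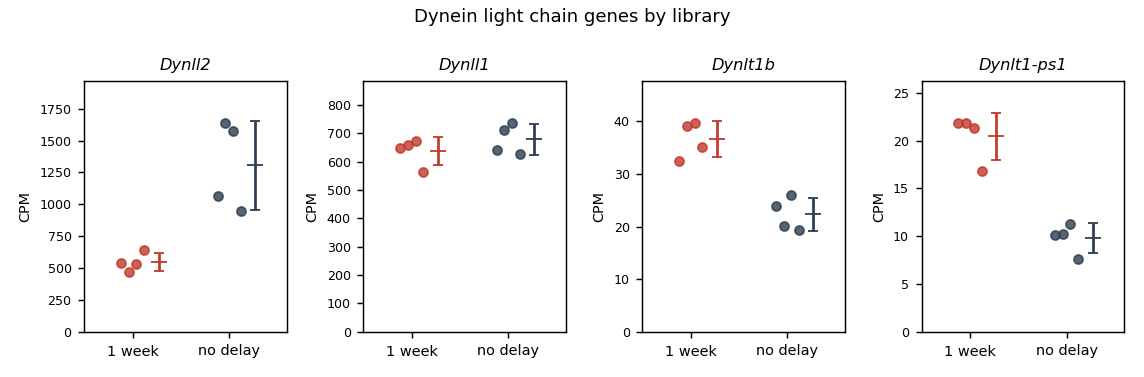
CPM of 4 dynein light chain genes in each library (points), with the mean and SD of the 4 libraries of a group (bars), 1 week on the left. The 1-week points of Dynll2 (472 to 644 CPM) lie below all no-delay points (947 to 1639 CPM), those of Dynll1 overlap, and those of Dynlt1b and Dynlt1-ps1 lie above.

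Light chains of the Tctex type, encoded by the Dynlt genes, went the other way where they were called. Dynlt1b stood at 32.5, 39.2, 39.7 and 35.2 CPM at 1 week, against 23.9, 20.2, 26.0 and 19.3 CPM without delay, with no overlap (log2 fold change 0.69, SE 0.11, limma adjusted p = 0.000301). The row named Dynlt1-ps1, a pseudogene symbol, stood at 21.9, 21.8, 21.3 and 16.8 CPM at 1 week, against 10.1, 10.2, 11.3 and 7.61 CPM without delay, again with no overlap (log2 fold change 0.99, SE 0.13, limma adjusted p = 8.23e-05). These rows cannot be kept apart with confidence. In GENCODE M21 transcripts, 93.3% of the 31-base words of Dynlt1-ps1 also occur in Dynlt1b and 100% in Dynlt1a, and 80.7% of those of Dynlt1b occur in Dynlt1a, so tags may have been divided among copies. Dynlt1a had 1.45 to 3.26 CPM at 1 week and 1.04 to 2.29 CPM without delay (log2 fold change 0.51, limma adjusted p = 0.0726). Dynlt1c, Dynlt1e and Dynlt1f were not tested, with 1, 9 and 2 tags over the 1-week libraries and 2, 7 and 0 over the no-delay libraries. Dynlt3, the other Tctex chain, was at 72.4 to 87.1 CPM at 1 week and 81.7 to 94.9 CPM without delay (log2 fold change -0.15, limma adjusted p = 0.137), and was called lower with TMM scaling, median-of-ratios scaling, edgeR and DESeq2 (lowest adjusted p = 0.0311). The roadblock light chains were not called: Dynlrb1 averaged 262 CPM at 1 week and 241 CPM without delay (limma adjusted p = 0.254), and Dynlrb2 1.89 CPM at 1 week and 1.16 CPM without delay (limma adjusted p = 0.146).

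The kinesins of cell division rose at very low levels. Of 8 such members, 5 passed the filter on low values, and 4 of the 5 were called higher (80.0%, against 23.4% of all genes). Kif18b and Kif4 passed only through their 1-week libraries. Kif22 (0.52 to 1.19 CPM without delay) and Kif18a (0.82 to 1.88 CPM without delay) also needed 1-week libraries to reach the 4 required. This count was thus largely set by the filter. The 3 members that did not pass it, Kif15, Kif20b and Kif2c, are named here for that reason and after their values were seen. Kif18a, which limits the swing of chromosomes at the metaphase plate, had 4.71, 2.96, 3.43 and 3.58 CPM at 1 week, against 0.82, 1.19, 1.88 and 1.15 CPM without delay (log2 fold change 1.05, SE 0.18, limma adjusted p = 0.000525). Kif18b, which shortens astral microtubules together with Kif2c, had 27, 26, 19 and 32 tags at 1 week, against 2, 0, 0 and 1 tags without delay (log2 fold change 1.58, SE 0.20, limma adjusted p = 5.4e-05). The groups did not overlap for either gene, and the log2(CPM + 1) scale understates changes at such levels. On pooled tags, corrected for depth, the ratio of 1 week to no delay was 2.82 for Kif18a (95% counting interval 2.05 to 3.93) and 29.1 for Kif18b (9.69 to 143). These intervals cover counting error only, since tags are not independent molecules.

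The chromokinesins, which bind chromosome arms, followed. Kif4 had 1.93, 1.4, 1.79 and 1.3 CPM at 1 week, against 0.41, 0.18, 0.30 and 0.31 CPM without delay (log2 fold change 1.00, SE 0.16, limma adjusted p = 0.000353; pooled tag ratio 5.32, interval 2.88 to 10.7). Kif22 had 1.69, 2.81, 1.93 and 2.36 CPM at 1 week, against 0.92, 0.73, 1.19 and 0.52 CPM without delay (log2 fold change 0.80, SE 0.17, limma adjusted p = 0.00325), a call lost with quantile normalization (adjusted p = 0.0716). In both genes all 1-week libraries lay above all no-delay ones. Kif24, known for its part in centriole and cilium control, also did not overlap, at 1.93 to 2.52 CPM at 1 week and 1.02 to 1.88 CPM without delay, but missed the threshold (limma adjusted p = 0.064). Of the 3 untested members, Kif20b, which acts in cytokinesis, had 63 tags over the 1-week libraries and 6 over the no-delay libraries, a ratio of 8.82 (interval 3.83 to 24.9). Kif15, a spindle motor, had 31 tags at 1 week and 5 without delay (ratio 5.21, interval 2.01 to 17.2), and Kif2c, which removes tubulin from microtubule ends, had 22 at 1 week and 1 without delay (ratio 18.5, interval 2.99 to 763). All 3 were called higher when the filter was lifted (limma adjusted p = 0.000132, 0.00377 and 0.00191 in that order), an analysis in which 20.5% of 17644 genes were called higher. Markers of dividing cells were higher as well, and the 9 in the list summed to 25.6 to 32.4 CPM at 1 week and 2.28 to 3.65 CPM without delay, with 1 of them at 0 in all no-delay libraries. The 7 that were tested were all called higher, but 6 of them were under 1 CPM in every no-delay library and passed the filter only through the 1-week libraries, so their count was largely set by the filter. The part of dividing cells in the change of these kinesins was not tested.

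**Figure D3:**
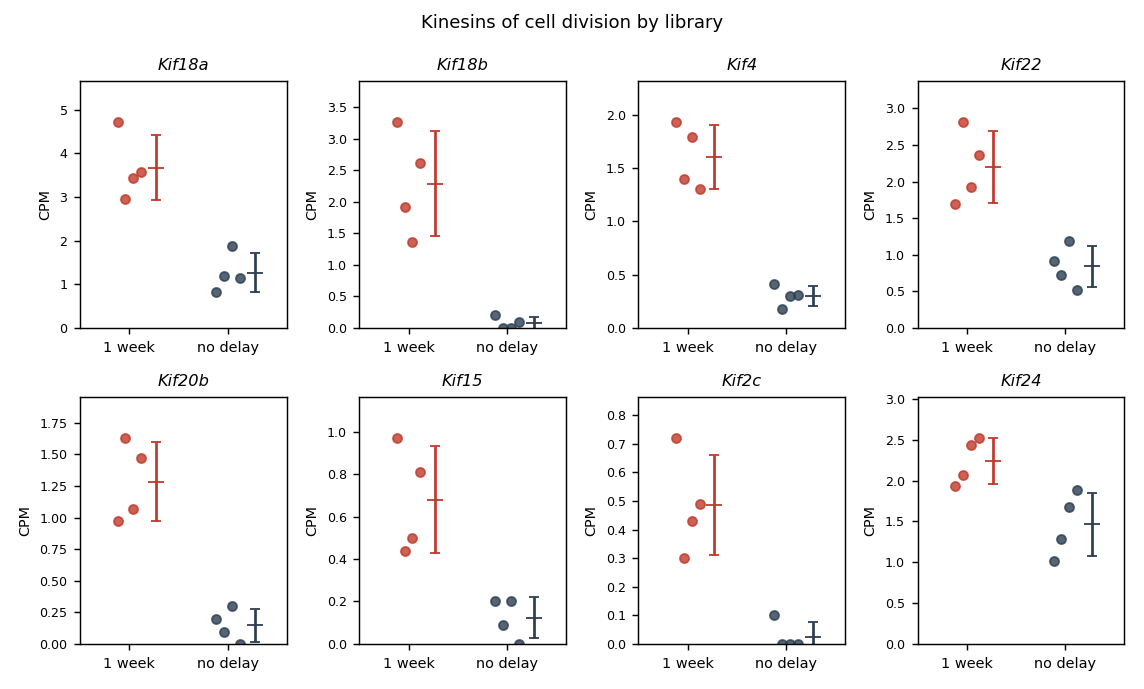
CPM of the 8 kinesins of cell division in each library (points), with mean and SD (bars, n = 4), 1 week on the left. In every panel the 1-week points lie above the no-delay points, and all values are below 5 CPM.

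Promoters are shown for the 4 mitotic kinesins called higher, and whether these genes are controlled together was not tested. The CHR element (cell cycle genes homology region), with the core letters TTTGAA, and the CCAAT box are known from promoters of genes transcribed late in the cell cycle. RefSeq promoters (GRCm38.p6, 250 bases before to 50 after the annotated start, another build than the mm9 of the deposited data) were at hand for 42 of the 57 members, among them all 8 mitotic kinesins. Capitals mark TTTGAA and CCAAT on either strand, so that TTCAAA and ATTGG are the same motifs read on the other strand. TTCGAA, searched as well, reads the same on both.
Kif18b (chr11:102925075-102925374, minus strand): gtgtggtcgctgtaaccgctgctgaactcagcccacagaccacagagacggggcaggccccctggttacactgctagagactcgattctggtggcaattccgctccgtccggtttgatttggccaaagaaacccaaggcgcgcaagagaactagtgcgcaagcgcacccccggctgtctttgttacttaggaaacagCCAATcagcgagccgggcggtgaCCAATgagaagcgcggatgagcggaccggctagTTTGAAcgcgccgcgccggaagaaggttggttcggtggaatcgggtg
Kif4 (chrX:100625815-100626114, plus strand): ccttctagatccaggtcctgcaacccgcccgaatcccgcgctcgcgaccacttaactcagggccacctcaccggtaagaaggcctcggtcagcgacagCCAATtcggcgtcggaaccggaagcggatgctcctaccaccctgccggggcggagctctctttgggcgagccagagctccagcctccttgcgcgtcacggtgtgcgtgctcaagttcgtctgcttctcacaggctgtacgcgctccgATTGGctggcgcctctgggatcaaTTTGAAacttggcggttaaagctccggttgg
Kif22 (chr7:127042371-127042670, minus strand): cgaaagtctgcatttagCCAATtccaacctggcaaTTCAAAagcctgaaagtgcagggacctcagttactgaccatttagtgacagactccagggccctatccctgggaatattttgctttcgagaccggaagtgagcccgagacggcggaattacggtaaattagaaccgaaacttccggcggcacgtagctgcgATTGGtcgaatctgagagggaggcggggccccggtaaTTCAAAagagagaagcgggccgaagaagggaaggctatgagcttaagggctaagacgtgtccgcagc
Kif18a (chr2:109280488-109280787, plus strand): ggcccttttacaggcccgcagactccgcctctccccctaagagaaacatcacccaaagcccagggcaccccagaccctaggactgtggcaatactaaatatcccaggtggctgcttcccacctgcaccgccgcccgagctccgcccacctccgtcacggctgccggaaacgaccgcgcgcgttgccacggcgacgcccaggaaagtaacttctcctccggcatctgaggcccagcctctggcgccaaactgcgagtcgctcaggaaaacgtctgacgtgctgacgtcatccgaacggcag

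In the Kif18b promoter 2 CCAAT boxes lie 53 and 30 bases before the annotated start, with TTTGAA just after it. Kif4 and Kif22 each hold both motifs as well, and Kif18a holds neither. TTTGAA was present in 6 of the 8 mitotic kinesin promoters (75.0%), in 2 of 34 promoters of the other members (5.88%) and in 4893 of 27025 promoters of all genes (18.1%). CCAAT was present in 4 of 8, in 14 of 34 and in 37.9% of all promoters. The related core TTCGAA was present in Kif24 alone among the mitotic kinesins, in 1 of the 34 other members and in 1.57% of all promoters. A match shows only that these letters are in the window.

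Kinesin-1 carries cargo along axons, and among its heavy chains the neuronal Kif5c was lower while the widely expressed Kif5b was not called. Kif5c stood at 613, 606, 682 and 645 CPM at 1 week, against 822, 724, 805 and 784 CPM without delay. The groups did not overlap, and the log2 fold change was -0.30 (SE 0.07, limma adjusted p = 0.00515). Kif5a, the other neuronal heavy chain, stood at 781, 740, 810 and 720 CPM at 1 week, against 989, 827, 789 and 757 CPM without delay. Its groups overlapped (log2 fold change -0.13, 95% interval -0.33 to 0.06, limma adjusted p = 0.254), although DESeq2 called it lower (adjusted p = 0.0374). Kif5b stood at 190, 176, 180 and 169 CPM at 1 week, against 176, 156, 167 and 158 CPM without delay (log2 fold change 0.12, 95% interval -0.01 to 0.26, limma adjusted p = 0.146). Of all kinesin-1 heavy chain tags, Kif5b made up 10.8% to 12.0% at 1 week and 8.83% to 9.49% without delay, Kif5c 38.7% to 42.1% at 1 week and 41.4% to 46.2% without delay, and Kif5a 46.9% to 49.3% at 1 week and 44.6% to 49.8% without delay.

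The light chains of kinesin-1, which link the motor to its cargo, did not move together. Klc2 was lower, at 197, 197, 197 and 211 CPM at 1 week, against 275, 240, 228 and 239 CPM without delay, with no overlap (log2 fold change -0.29, SE 0.07, limma adjusted p = 0.00542). Klc1, the most abundant, was not called, at 397 to 465 CPM at 1 week and 438 to 482 CPM without delay (log2 fold change -0.09, 95% interval -0.24 to 0.06, limma adjusted p = 0.343). Klc4 was called higher at 13.9, 15.0, 15.4 and 13.4 CPM at 1 week, against 10.6, 13.8, 11.2 and 10.52 CPM without delay (log2 fold change 0.31, SE 0.11, limma adjusted p = 0.0429). That call ended in 12 of 17 alternative analyses, and the adjusted p over all 17 lay between 0.0154 and 0.579. It was lost without 1-week library A, B or C, and without no-delay library A, C or D (adjusted p between 0.0621 and 0.114 for these 6). Klc3, a low-level chain, had 0.85, 2.29, 2.57 and 2.12 CPM at 1 week, against 0.31, 0.73, 1.09 and 0.52 CPM without delay, with overlap through 1-week library A (log2 fold change 0.81, SE 0.23, limma adjusted p = 0.0141), and its call was lost with quantile normalization (adjusted p = 0.235). Without delay Klc3 reached 1 CPM in library C only. It thus needed its 1-week libraries to pass the filter, so its direction was partly set by it.

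In kinesin-2, which serves intraflagellar and dendritic transport, 3 of 4 members were lower (75.0%, against 13.4% of all genes). Kif3a and Kif3b form the motor pair of the classical heterotrimer, and Kif3a can also pair with Kif3c. Kif3a stood at 153, 159, 163 and 154 CPM at 1 week, against 174, 188, 185 and 179 CPM without delay, with no overlap (log2 fold change -0.21, SE 0.06, limma adjusted p = 0.0119). Kif3c stood at 147, 138, 148 and 154 CPM at 1 week, against 186, 165, 157 and 183 CPM without delay, with no overlap (log2 fold change -0.23, SE 0.07, limma adjusted p = 0.0222). The Kif3c call was lost without 1-week library B (adjusted p = 0.0697) or without no-delay library A (adjusted p = 0.0605) or D (adjusted p = 0.0586), within a range of 0.00104 to 0.0697 over all alternatives. Kif17, which carries NMDA receptor vesicles in dendrites, stood at 61.6, 70.7, 70.2 and 64.5 CPM at 1 week, against 82.1, 77.1, 84.1 and 75.4 CPM without delay, with no overlap (log2 fold change -0.25, SE 0.07, limma adjusted p = 0.0129). Kif3b overlapped, at 43.7 to 52.5 CPM at 1 week and 41.8 to 49.3 CPM without delay (log2 fold change 0.11, 95% interval -0.07 to 0.28, limma adjusted p = 0.318).

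**Figure D4:**
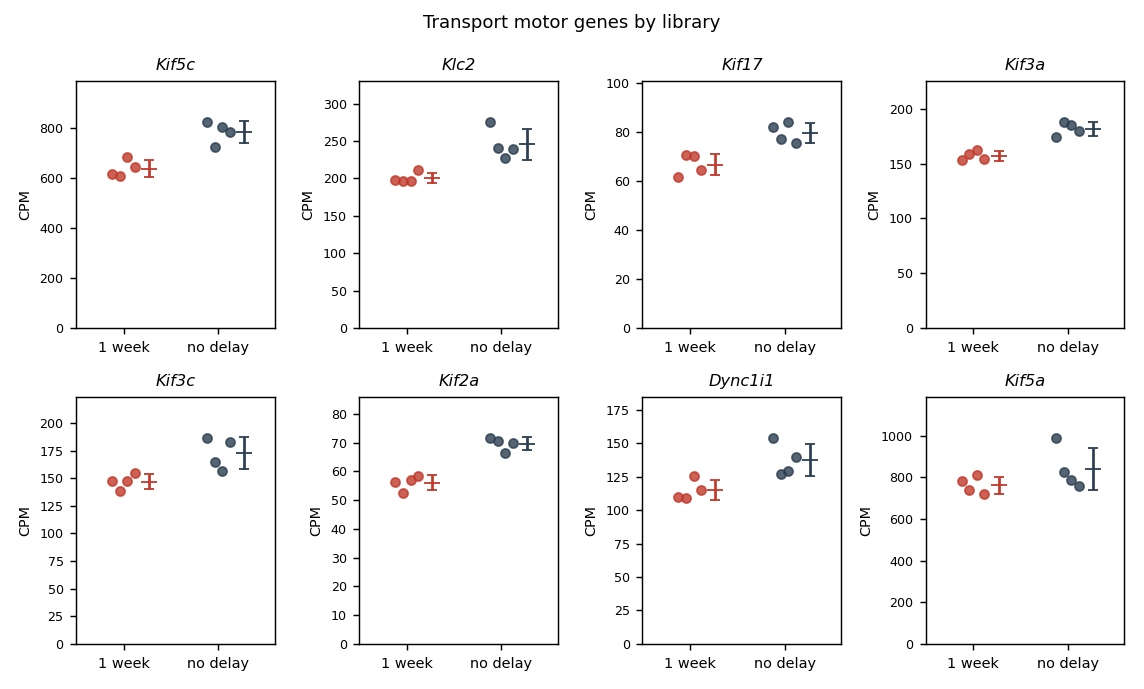
CPM of 8 motor genes in each library (points), with mean and SD (bars, n = 4), 1 week on the left and axes from 0. The 1-week points of the first 7 genes lie below all no-delay points by modest amounts, while those of Kif5a (720 to 810 CPM) overlap with the no-delay points (757 to 989 CPM).

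Kif2a, a kinesin that takes tubulin off microtubule ends and limits the growth of axon branches, was lower with little spread. It stood at 56.4, 52.5, 57.2 and 58.3 CPM at 1 week, against 71.6, 70.6, 66.5 and 70.02 CPM without delay, with no overlap (log2 fold change -0.31, SE 0.06, limma adjusted p = 0.00225), and was called in all 17 alternatives. The 7 members other than Dynll2 that were called lower thus had ratios of means from 0.805 (Kif2a) to 0.865 (Kif3a). The neuronal markers called lower had log2 fold changes of -0.32 (Rbfox3), -0.23 (Syn1) and -0.20 (Syt1). The other 6 tested were not called and ran from -0.22 (Snap25) to 0.11 (Stmn2), and the median of the 9 was -0.06. These marker calls depended on the processing. The Syt1 call was lost with no filter, without any 1-week library and without no-delay library A or B (limma adjusted p from 0.0627 to 0.0924). The Syn1 call was lost with quantile normalization (limma adjusted p = 0.0889) and without some single libraries. Snap25 was called lower with TMM, median-of-ratios and quantile scaling, edgeR and DESeq2. The part of neurons in these motor changes was not tested.

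Kinesin-3 motors carry synaptic vesicle precursors, mitochondria and endosomes, and most were not called. Kif1a, the carrier of synaptic vesicle precursors, stood at 506 to 567 CPM at 1 week and 519 to 584 CPM without delay (log2 fold change -0.01, 95% interval -0.15 to 0.14, limma adjusted p = 0.944). Kif1b stood at 691 to 733 CPM at 1 week and 679 to 758 CPM without delay (log2 fold change -0.06, 95% interval -0.20 to 0.09, limma adjusted p = 0.539). Kif13b was the only kinesin-3 gene called, with 51.5, 50.03, 41.4 and 38.0 CPM at 1 week, against 37.6, 31.4, 33.6 and 23.0 CPM without delay. Its groups were separated by less than 1 CPM, and the log2 fold change was 0.52 (SE 0.14, limma adjusted p = 0.0113). Kif16b, a motor of early endosomes, overlapped at 18.9 to 27.5 CPM at 1 week and 24.7 to 41.2 CPM without delay (log2 fold change -0.42, limma adjusted p = 0.0545), and 8 of 17 alternatives called it lower (adjusted p from 0.0082 to 0.157). Kif1c and Kif13a were not called. In kinesin-4, Kif21a (86.9 to 103 CPM at 1 week, 95.2 to 115 CPM without delay) was not called with CPM as deposited (log2 fold change -0.19, limma adjusted p = 0.086), and 6 alternatives called it lower. Kif21b, at 72.1 to 81.4 CPM at 1 week and 69.0 to 89.2 CPM without delay, was not called (limma adjusted p = 0.425).

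Outside its light chains, the dynein motor differed little. Of the 5 dynein-1 chains only Dync1i1, the neuronal intermediate chain, was called, at 110, 109, 125 and 115 CPM at 1 week, against 154, 127, 129 and 140 CPM without delay (log2 fold change -0.26, SE 0.08, limma adjusted p = 0.0179). The groups did not overlap, and the call was lost without 1-week library B (adjusted p = 0.0545, the highest of all alternatives, with 0.00043 the lowest). Its widely expressed relative Dync1i2 averaged 212 CPM (SD 6.54) at 1 week and 217 CPM (SD 4.72) without delay (limma adjusted p = 0.667). The heavy chain gene Dync1h1, which encodes the motor itself, averaged 193 CPM (SD 5.57) at 1 week and 202 CPM (SD 7.92) without delay (limma adjusted p = 0.384). Over the 4 dynein-1 chains not called, the 95% intervals of the log2 fold change reached from -0.19 to 0.14. None of the 6 dynactin genes was called by limma, by edgeR or by DESeq2, 0 had an unadjusted limma p under 0.05, and their intervals reached from -0.17 to 0.40. Dctn3, the most abundant, averaged 249.6 CPM (SD 12.0) at 1 week and 255 CPM (SD 16.8) without delay (limma adjusted p = 0.773), and all 6 together summed to 967 to 1021 CPM at 1 week and 945 to 1009 CPM without delay. The 2 dynein-2 genes, which return cargo from the tips of cilia, were not called, with Dync2h1 at 42.9 to 47.1 CPM at 1 week and 41.1 to 48.5 CPM without delay (limma adjusted p = 0.844).

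To ask whether relatives moved by different amounts, the log2 ratio of CPM + 1 was compared between the groups for 10 pairs by exact permutation of the 8 libraries (70 arrangements, 2-sided). The smallest p that 4 against 4 libraries allow is 0.0286, and 5 pairs reached it, but none passed 0.05 after adjustment over the 10 pairs (adjusted p = 0.0571 for those 5). With this floor a pair can pass only if more than 5 pairs reach it. A lone pair could not pass however large its difference, so the adjusted values say nothing against any single pair. The pairs among Kif5a, Kif5b and Kif5c share genes and are not independent. The pairs were chosen with earlier results of these data known, so the number that reached this p may be partly set by the choice. The pair Dynll2/Dynll1 had a mean log2 ratio of -0.22 ± 0.29 at 1 week and 0.91 ± 0.29 without delay (SD, n = 4 each), a difference of -1.13. Both neuronal heavy chains were lower relative to Kif5b, with differences of -0.42 for Kif5c/Kif5b and -0.26 for Kif5a/Kif5b. The differences were -0.32 for Kif3a/Kif3b and -0.22 for Dync1i1/Dync1i2. In these 5 pairs the groups did not overlap, though the gap was narrow for Kif3a/Kif3b (highest ratio of CPM at 1 week 3.53, lowest without delay 3.53) and for Dync1i1/Dync1i2 (0.588 and 0.588). The other 5 pairs were Klc1/Klc2 (difference 0.20, exact permutation p = 0.0571), Kif5a/Kif5c (0.17, exact permutation p = 0.171), Kif21b/Kif21a (0.10, exact permutation p = 0.343), Kif1a/Kif1b (0.05, exact permutation p = 0.229) and Dync1li1/Dync1li2 (0.05, exact permutation p = 0.543). Since both genes of a pair are read in the same library, scaling cancels almost fully in the ratio.

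**Figure D5:**
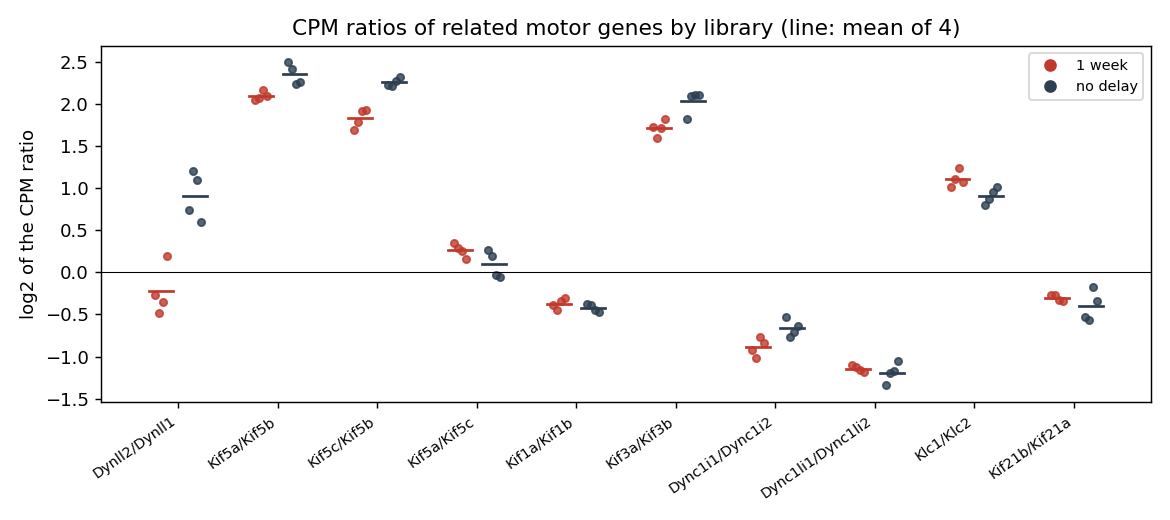
Log2 ratio of CPM for 10 pairs of related motor genes in each library (points) with the group mean (line), 1 week left of no delay in each pair. The groups are farthest apart for Dynll2/Dynll1, where ratios of CPM ran from 0.716 to 1.14 at 1 week and from 1.51 to 2.31 without delay.

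Of the remaining kinesins, Kif19a and Kif26a were called higher. Kif19a, which trims microtubules at the tips of motile cilia, stood at 5.92, 10.05, 9.50 and 4.89 CPM at 1 week, against 2.46, 1.83, 3.07 and 1.25 CPM without delay. The groups did not overlap, with libraries B and C highest among the 1-week ones (log2 fold change 1.43, SE 0.23, limma adjusted p = 0.000441). Of the 8 markers of ependyma and motile cilia in the list 4 are in the table analysed and 3 were tested. Foxj1, the regulator of motile cilia, was called higher. With 0.10 to 1.37 CPM without delay, Foxj1 needed its 1-week libraries to pass the filter. The other 2 tested were not called, and Tmem212 was at 0 in all 1-week libraries. The 4 summed to 44.6 to 48.4 CPM at 1 week and 44.5 to 52.0 CPM without delay. Most of that sum was Ccdc39 (mean 37.5 CPM at 1 week and 40.6 CPM without delay), so it says little of the others. Kif9 and Kif6, kinesins also linked to motile cilia, were not called (limma adjusted p = 0.527 and 0.56). Kif26a, an unusual kinesin without motor activity, had 3.14, 3.99, 4.00 and 3.99 CPM at 1 week, against 2.77, 2.47, 1.68 and 2.08 CPM without delay (log2 fold change 0.56, SE 0.15, limma adjusted p = 0.0103), and quantile normalization ended that call (adjusted p = 0.462). Kif26b overlapped, at 12.4 to 17.3 CPM at 1 week and 12.5 to 16.3 CPM without delay (limma adjusted p = 0.678).

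Partners of the motors that are not members changed in both directions as well. Of 65 listed genes, 59 were in the table and tested, and 12 were called higher (20.3%) and 14 lower (23.7%), against 23.4% higher and 13.4% lower of all genes (median log2 fold change -0.07, against 0.06 over all genes). Among 21 regulators and cargo adaptors of dynein, 6 were lower (28.6%) and 3 higher (14.3%). Pafah1b1, which encodes the dynein activator Lis1, averaged 278 ± 35.9 CPM at 1 week and 476 ± 75.3 CPM without delay (log2 fold change -0.77, SE 0.12, limma adjusted p = 0.000327), and Nde1, which tethers Lis1 to dynein, 18.6 ± 1.92 CPM at 1 week and 10.9 ± 1.44 CPM without delay (log2 fold change 0.72, SE 0.11, limma adjusted p = 0.000327). Hap1, an adaptor for both kinds of motor, averaged 69.6 CPM at 1 week and 98.0 CPM without delay (log2 fold change -0.50).

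Among 20 partners of kinesin, 7 were lower (35%) and 1 higher, where 13.4% of all genes were lower. Clstn1, whose product calsyntenin-1 binds kinesin light chains, averaged 481 ± 53.7 CPM at 1 week and 809 ± 68.5 CPM without delay (log2 fold change -0.75, SE 0.09, limma adjusted p = 4.14e-05). Trak1, the adaptor for mitochondria, had a log2 fold change of -0.36 with overlapping groups (limma adjusted p = 0.0429), and Fez2 one of 0.37. The Trak1 call was lost without 1-week library A, B or C, without no-delay library A, B or C (adjusted p between 0.0747 and 0.128 for these 6) and with no filter (adjusted p = 0.0567). Of 7 other motors, 3 were higher (42.9%) and 1 lower (14.3%), against 23.4% higher and 13.4% lower of all genes. The log2 fold changes of the higher ones were 0.90 for the mitotic kinesin Cenpe, 0.59 for the myosin Myo6, which walks toward the minus end of actin, and 0.48 for the spindle kinesin Kifc1. Cenpe had 0.10, 0, 0.20 and 1.25 CPM in the no-delay libraries, so it needed its 1-week libraries to pass the filter. The calls of Cenpe and Kifc1 were lost with quantile normalization (adjusted p = 0.183 and 0.612). That of Kifc1 was also lost with DESeq2 (adjusted p = 0.0861) and without 1-week library A, B or C (adjusted p = 0.0519, 0.055 and 0.0506). Of 11 tubulins, the subunits of the track itself, 5 were higher (45.5%, against 23.4% of all genes) and 0 lower. They included Tubb2b at 170 ± 11.0 CPM at 1 week and 107 ± 2.75 CPM without delay (log2 fold change 0.66, limma adjusted p = 5.42e-06). The low-level Tuba1c and Tubb6 had log2 fold changes of 2.13 and 1.95. Both were under 1 CPM in every no-delay library (highest 0.55 and 0.79 CPM). They passed the filter only through the 1-week libraries, so their direction was largely set by it. The Tuba1b call was lost with TMM scaling (adjusted p = 0.0529), median-of-ratios scaling (adjusted p = 0.0611) and edgeR (adjusted p = 0.0535). It was also lost without 1-week library B or C and without no-delay library B, C or D (adjusted p between 0.0529 and 0.0924).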

How the data were processed

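CAGE libraries from 8 samples, 4 at 1 week and 4 with no delay, were read from 1 end over 75 nt, per the labels' protocols. BWA 0.5.9 and build mm9 are named in the submitters' processing notes, while neither the assignment of tags to genes nor its use of strand is stated in them. The authors deposited CPM, tags scaled to an equal total over genes, in 1 table of 17644 symbols. Column names show the group but no replicate number.

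Tags were recovered from CPM, with 100% of values whole within 0.1 tags, and served the count tests, floors and pooled ratios. Groups were compared with limma 3.58.1 under R 4.3.3 (variance trend, 2-sided) on log2(CPM + 1) for 14718 genes with 1 CPM or more in at least 4 libraries, adjusted by Benjamini-Hochberg over all of them and called at 0.05. Alternatives were pseudocounts of 0.25 and 4, no filter, a filter of 5 CPM, TMM, median-of-ratios and quantile scaling, edgeR 4.0.16, DESeq2 1.42.0, and the omission of each library with the genes tested kept. The procedure was tested on simulated counts. Role groups, partner and marker lists and pairs were chosen with earlier results of these data known. Genes were named if they were in a pair, if called (up to 25 with a mean of 5 CPM or more by absolute log2 fold change, below that those with a group mean of 1 CPM or more), if most abundant in a role group without a call, or if among the 3 most changed called genes of a partner list. No member had the same tags in every library as another gene with 20 tags or more. Opposite-strand neighbours within 1000 bases of the start (GENCODE M21, names only) exist for 14 members, among them Kif4, Kif18a, Kif3a and Klc4, whose tags cannot be told apart if strand was not used.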

Additional observations from a re-analysis of the deposited data

Results flagged for a closer look

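Among the 66 groups of 4 libraries behind the 33 members named, 5 held a library far from the others, by Dixon's criterion for the gap to the nearest value. Chance gives about 1 in 20 groups. Kif1a was at 506 CPM in 1-week library B and at 559 to 567 CPM in libraries A, C and D. No-delay library B had 679 CPM of Kif1b, against 757 to 758 CPM in the others of its group. 1-week library D had 211 CPM of Klc2, against 197 to 197 CPM in the others, and 16.8 CPM of Dynlt1-ps1, against 21.3 to 21.9 CPM. 1-week library A had 3.14 CPM of Kif26a, against 3.99 to 4.00 CPM in the others. Klc2, Dynlt1-ps1 and Kif26a were called in the same direction without the library concerned.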

How the results depend on the processing

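The 11 members called higher became 4 with a filter of 5 CPM, which leaves 40 members to test, and 7 with quantile normalization, for which the cause was not tested. All other alternatives gave 10 to 14 higher and 6 to 12 lower, and the omission of single libraries gave 10 to 12 and 6 to 10. Of the 8 called lower, 8 were shared with TMM, median-of-ratios and quantile scaling, edgeR and DESeq2. Over all genes the median log2 fold change was 0.06 with CPM as deposited, 0.01 with TMM and -0.04 with quantile normalization, and members that were not called changed sign by such amounts: Dync1li1 had -0.049 with TMM, -0.052 with edgeR, -0.058 with median-of-ratios scaling, -0.061 with DESeq2, and -0.024 to 0.047 without single libraries. With quantile normalization Dync1i2 had 0.012, Dync1li2 0.0097, Kif1a 0.0032 and Dctn3 0.024. Without single libraries Dync1li2 ran from -0.067 to 0.0092, Kif1a from -0.036 to 0.030, Dctn3 from -0.065 to 0.0062 and Dync2h1 from -0.064 to 0.015. The 12 and 14 partner genes called higher and lower became 8 to 11 and 14 to 19. The differences of pair ratios kept their sign with both other pseudocounts. Without single libraries these differences were not tested again, and their size ran from -1.27 to -1.04 for Dynll2/Dynll1. No paired analysis was possible because the columns carry no replicate numbers. Depth limits the members with few tags, among them Kif2c, Kif18b, Kif15 and Kif20b with 1 to 6 tags over the no-delay libraries, and Dynlt1c, Dynlt1e and Dynlt1f with 0 to 7.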
